A study of Mus musculus with 2 samples.

Results

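The eukaryotic translation initiation factors were examined in RNA pulled down with an anti-HuR antibody, HuR being an RNA-binding protein and the product of Elavl1. Members were taken by name: every row whose gene symbol began with Eif followed by a digit from 1 to 6 was kept, which gave 60 of 38396 rows. Of these, 55 were marked protein-coding, and 41 of the 55 reached 5 FPKM in at least 1 library, out of 5571 protein-coding genes that did so. FPKM is the number of sequenced fragments per kilobase of transcript divided by the mapped fragments of the library.

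The RNA came from epididymal white fat of mice aged 6 weeks. The HuR-FKO mice carried floxed HuR alleles together with Cre under the adiponectin promoter (AdipoQ-Cre), and the control mice were littermates that carried the same floxed alleles without Cre. This Cre is active in adipocytes, so the vascular, stromal and immune cells of the fat pad keep HuR. Each genotype had 1 library and no replicate, and neither a test nor an error between libraries is given. Input and IgG libraries were not analysed here, and a difference in FPKM therefore cannot separate recovery by the antibody from the amount of the mRNA in the tissue, nor fewer cells of a type from less RNA per cell.

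Translation initiation loads the small ribosomal subunit with the initiator methionyl-tRNA, brings it to the capped end of an mRNA and lets it scan to a start codon. eIF2 carries the tRNA and eIF2B recharges eIF2 with GTP, eIF4 factors bind the cap and unwind the leader, eIF3 holds the complex together, eIF1 and eIF1A guard the choice of start codon, and eIF5, eIF5B and eIF6 act around subunit joining. Insulin reaches this machinery in fat mainly through mTORC1, which phosphorylates the eIF4E-binding proteins, and stress reaches it through kinases that phosphorylate eIF2.

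The targeted gene was looked at first. Elavl1 was at 26.1 FPKM in the HuR-FKO-labelled library and 16.6 FPKM in that labelled control, 1.57-fold higher where it was to be deleted. Its ratio nevertheless lay 2.97-fold toward control from the median ratio of all tested genes. The targeted gene thus went against its label on the deposited scale, and every direction below is for the libraries as labelled. The value was taken over the full gene in every cell type of the tissue and in an immunoprecipitate, which makes it no direct check of the deletion, and other measurements of HuR in this fat were not used here. Of the adipocyte markers, 8 of 8 reached 5 FPKM in the HuR-FKO-labelled library and 7 of 8 in that labelled control, with sums of 28110 and 8385 FPKM. Fibroblast and progenitor markers summed to 407.3 FPKM in HuR-FKO and 59.6 FPKM in control, endothelial markers to 19.4 and 11.9 FPKM, and macrophage markers to 14.6 and 6.84 FPKM. Most of the fibroblast and progenitor sum was Col1a1, at 307.9 FPKM in HuR-FKO and 33.3 FPKM in control. The lowest value among these markers was 0.17 FPKM in HuR-FKO and 0.51 FPKM in control, so not every one was higher in HuR-FKO. No marker of T and B cells, of skeletal muscle or of the epididymis reached 5 FPKM in either library, and mesothelial markers summed to 10.1 and 0.927 FPKM. The table matched 2 of 3 red cell markers, 4 of 5 macrophage markers and 3 of 4 skeletal muscle markers by name. The red cell markers went opposite ways, with Hba-a1 at 466.7 FPKM in HuR-FKO and 246.1 FPKM in control and Alas2 at 1.92 and 8.14 FPKM. The part of these marker levels in the results below was not tested.

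HuR is known for binding U-rich and AU-rich stretches of RNA, among them the pentamer AUUUA of 3′ UTRs. Short windows around such a pentamer are therefore printed for the members that lay farthest from the median ratio on either side, as DNA letters of the transcript strand from 5′ to 3′, with each ATTTA in capitals. Each is the window of 30 bases that held the most ATTTA in the longest annotated 3′ UTR. Positions are mm10, and the transcripts are those of GENCODE release M21. Toward control lay Eif1b (chr9:120495048-120495077, plus strand), Eif4a2 (chr16:23113779-23113808, plus), Eif1ax (chrX:159385942-159385971, plus), Eif4g2 (chr7:111069399-111069428, minus) and Eif4a1 (chr11:69666977-69667006, minus). Toward HuR-FKO lay Eif5b (chr1:38052899-38052928, plus) and Eif4a3 (chr11:119288480-119288509, minus).
Eif1b: agactttgcgtttATTTAatcattcagact
Eif4a2: attgtATTTAttcaataaagtATTTAatta
Eif1ax: ctggcagaaatctATTTAaaggcaaaaatg
Eif4g2: agtttacttATTTAcaaATTTAatcaagtt
Eif4a1: tgttttgtatagtATTTAttgattcaggaa
Eif5b: aattaacacaattATTTAcatgcaatactg
Eif4a3: aacggaagcttctATTTAatggggttgata
The windows of Eif4a2 and Eif4g2 each held 2 pentamers, a count that follows from choosing the densest window. The other members at least 2-fold from the median ratio, Eif3e on the control side and Eif3d, Eif3h and Eif4enif1 on the HuR-FKO side, had no ATTTA in the 3′ UTR searched.

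All 55 protein-coding members were above 0 in the HuR-FKO-labelled library and 51 in that labelled control, and 41 and 29 of them reached 5 FPKM. Of all 21127 protein-coding rows, 13896 and 12138 were above 0 in the same order, and 5391 and 2411 reached 5 FPKM. The 41 that passed the filter thus included 12 that passed through HuR-FKO alone, against 3160 of the 5571 genes tested. Passing that way favours ratios toward HuR-FKO. On the deposited scale all 41 were higher in HuR-FKO (background 92.6% of tested genes). Median centring, however, turned 13 toward control, and upper-quartile scaling turned 17, as did scaling to summed protein-coding FPKM. The share of all tested genes so turned was not counted. Over all tested genes the median log2 ratio under these scalings was 0.55, 0.24 and 0.42, beside 0.40, 0.091 and 0.27 for the members. On the deposited scale 37 were at least 2-fold higher in HuR-FKO (90.2%, background 82.4%), and 0 were at least 2-fold higher in control (background 3.21%). The ratios of the members ran from 1.55-fold for Eif1b to 12.2-fold for Eif3d. Their median log2 ratio was 2.07, beside 2.22 for all tested genes, which is a 4.66-fold higher level in HuR-FKO. Their SD was 0.82 on the log2 scale, beside 1.88 over all tested genes. Among genes whose higher value was between 20 and 50 FPKM, the SD was 0.77 over 17 members and 1.69 over 1173 genes. Both SDs over all genes include genes listed at 0 in control and set to 0.1 FPKM, whereas the lowest control value of a tested member was 0.902 FPKM. The SD without such genes was not computed.

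**Figure D1:**
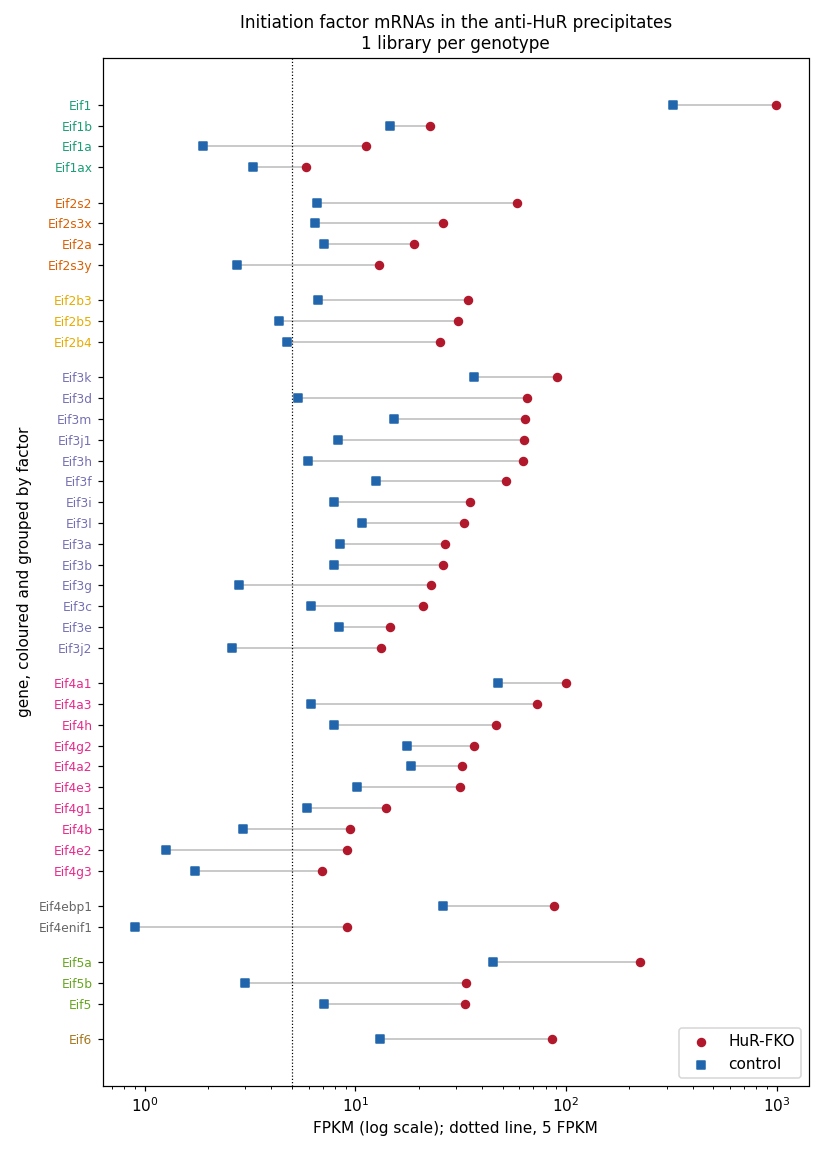
FPKM on a log axis of the 41 initiation factor genes that reached 5 FPKM in a library, with 1 point for the library labelled HuR-FKO and 1 for that labelled control, 1 library each. Every HuR-FKO point lies to the right of its control point, as all 41 had the higher FPKM there, and Eif1 stands highest in both, at 996.9 and 321.6 FPKM.

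Because a change of scale adds the same amount to every log2 ratio, the members are compared below by their ratio relative to the median ratio of all tested genes, where a positive log2 value lies toward HuR-FKO and a negative one toward control. By that measure 23 of 41 members were below the median (background 50.0%) and 18 above. At least 2-fold toward control lay 6 members (14.6%, background 21.8%), and at least 2-fold toward HuR-FKO lay 5 (12.2%, background 25.0%). Both shares were under the background. Of the 5 toward HuR-FKO, Eif5b and Eif4enif1 passed the filter through HuR-FKO alone. The median of the members was -0.15, and its side depended on the settings, since it was 0.24 with 5 FPKM required in both libraries (21 of 29 members above), 0.14 with no filter (32 of 55 above), 0.068 with a pseudocount of 1 (21 of 41 above) and 0.022 with a filter of 20 FPKM (15 of 30 above). The median of the 4 eIF1 genes was -0.99, that of the 10 eIF4 genes -0.57, of the 14 eIF3 genes -0.16, of the 4 eIF2 genes -0.10, of the 3 eIF5 genes 0.10, of the 3 eIF2B genes 0.20, of the 2 genes for eIF4E-binding proteins 0.32 and of the single gene Eif6 0.49. The medians of eIF1, eIF4, eIF2B and eIF6 kept their side under each filter, pseudocount and gene set tried. That of eIF2B was however only 0.027 with a filter of 1 FPKM. With 5 FPKM required in both libraries it rested on Eif2b3 alone, and eIF6 is 1 gene throughout. The medians of eIF2 (up to 0.78 with no filter), eIF3 (up to 0.39 with 5 FPKM required in both libraries), eIF5 (-0.022 with a filter of 1 FPKM) and the eIF4E-binding proteins (down to -0.47 without members that share a locus) did not keep their side. The factors overlapped widely, and the group of eIF4 alone held members at -1.42 and 1.33.

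**Figure D2:**
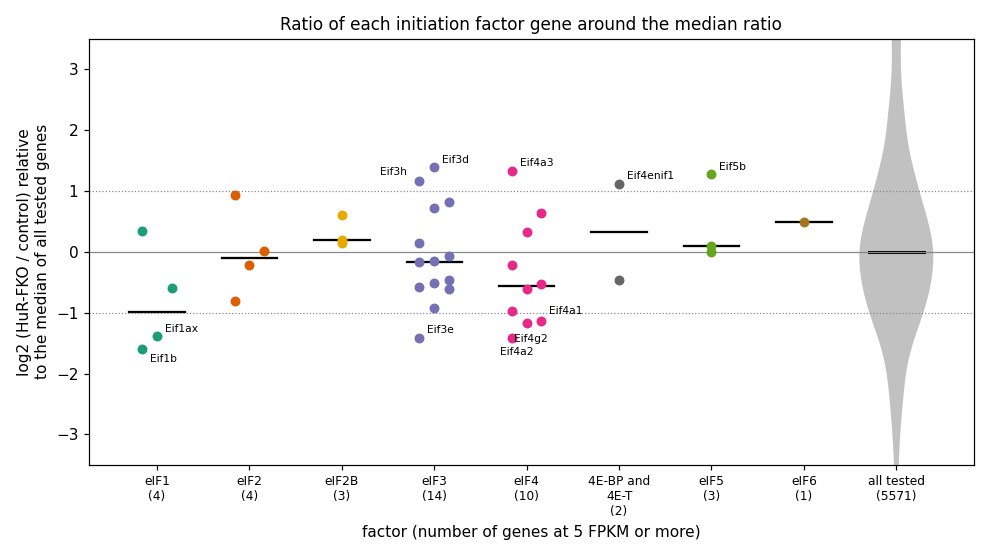
Log2 ratio of HuR-FKO over control relative to the median of all tested genes, 1 point per gene by factor, with short bars for the medians and a grey violin for all 5571 tested genes, of which 461 lie beyond the axis. Dotted lines mark 2-fold, and the genes of most factors lie on both sides of 0.

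Eif1, which keeps the scanning complex from settling on a wrong start codon, was the most abundant member in both libraries. The gene (ENSMUSG00000035530, chromosome 11, 100319885 to 100322096, plus strand) was at 996.9 FPKM in the HuR-FKO-labelled library and 321.6 FPKM in that labelled control, 3.10-fold higher in HuR-FKO. Its paralog Eif1b (chromosome 9, 120492232 to 120495330) was at 22.5 FPKM in HuR-FKO and 14.5 FPKM in control. Eif1 thus exceeded Eif1b 44.3-fold in HuR-FKO and 22.1-fold in control, and Eif1b had the lowest ratio of all 41 members, 3.01-fold toward control from the median. The eIF1A genes, whose product helps the subunit to scan, changed their order between the libraries. Eif1a was at 11.2 FPKM in HuR-FKO and 1.89 FPKM in control, and the X-linked Eif1ax was at 5.81 FPKM in HuR-FKO and 3.27 FPKM in control. Eif1a was therefore 1.93 times Eif1ax in HuR-FKO and 0.578 times in control. The best match between these transcripts was 84.4% identical over 461 bases, and between Eif1 and Eif1b 81.1% over 350 bases. Whether any reads were shared between such copies was not tested.

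The subunits of eIF2, the carrier of the initiator tRNA, were unequal in HuR-FKO, while in control the beta and X-linked gamma subunits were nearly level. Eif2s2, the beta subunit, was at 58.4 FPKM in the HuR-FKO-labelled library and 6.55 FPKM in that labelled control, 8.91-fold higher in HuR-FKO. Eif2s3x, the X-linked gamma subunit, was at 25.9 FPKM in HuR-FKO and 6.45 FPKM in control, and its Y-linked copy Eif2s3y was at 12.9 and 2.74 FPKM. The X copy exceeded the Y copy 2.01-fold in HuR-FKO and 2.35-fold in control. The alpha subunit Eif2s1, the substrate of the stress kinases, did not pass the filter, at 0.997 FPKM in HuR-FKO and listed at 0 in control, so Eif2s2 exceeded it 58.5-fold in HuR-FKO. Eif2a, a separate single-chain factor and not a subunit of eIF2, was at 18.9 FPKM in HuR-FKO and 7.13 FPKM in control.

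Of eIF2B, the exchange factor of eIF2, 3 of 5 subunits passed the filter, and all 3 lay above the median ratio. Eif2b4 and Eif2b5 passed through HuR-FKO alone, which favours ratios toward HuR-FKO. Eif2b5, the catalytic epsilon subunit, was at 30.7 FPKM in the HuR-FKO-labelled library and 4.33 FPKM in that labelled control, 7.10-fold higher in HuR-FKO. Its partner Eif2b3, the gamma subunit, was at 34.4 FPKM in HuR-FKO and 6.68 FPKM in control, and the delta subunit Eif2b4 was at 25.3 and 4.73 FPKM. The alpha and beta subunits, which belong to the regulatory part of the complex with delta, did not pass the filter. Eif2b1 was at 3.33 FPKM in HuR-FKO and 4.30 FPKM in control, and Eif2b2 at 1.62 FPKM in HuR-FKO and 2.12 FPKM in control, so both values were lower in HuR-FKO. Relative to the median ratio of the tested genes they lay at -2.59 and -2.61 on the log2 scale. Eif2b5 was 9.24 times Eif2b1 in HuR-FKO and 1.01 times in control. Eif2b1 and Eif2b2 rest on an estimated 36.1 and 19.4 fragments in HuR-FKO and 28.0 and 15.2 in control.

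None of the 4 eIF2 kinases reached 5 FPKM in either library. Eif2ak2, the kinase PKR that senses double-stranded RNA, came closest at 4.67 FPKM in the HuR-FKO-labelled library and 0.137 FPKM in that labelled control. Eif2ak1, the heme-sensing kinase, was at 1.79 FPKM in HuR-FKO and 0.109 FPKM in control. Eif2ak3, the kinase PERK of the endoplasmic reticulum, was nearly level at 1.82 FPKM in HuR-FKO and 1.75 FPKM in control. Eif2ak4, the amino acid sensor GCN2, was at 0.897 FPKM in HuR-FKO and listed at 0 in control. In control Eif2ak1 and Eif2ak2 correspond to an estimated 2.46 and 2.05 fragments, so their ratios are not given.

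All 14 genes of eIF3, the largest initiation factor, passed the filter, and 9 of 14 lay below the median ratio. The scaffold subunits had almost the same ratio. Eif3a was at 26.6 FPKM in the HuR-FKO-labelled library and 8.50 FPKM in that labelled control, Eif3b at 25.97 and 7.94 FPKM, and Eif3c at 20.8 and 6.15 FPKM. Their ratios were 3.13-, 3.27- and 3.39-fold. Eif3d, which in human cells can bind the cap of some mRNAs, had the highest ratio of all 41 members. Eif3d (chromosome 15, 77958998 to 77970813) was at 65.2 FPKM in HuR-FKO and 5.34 FPKM in control, 12.2-fold higher in HuR-FKO. Its docking partner Eif3e (chromosome 15, 43250058 to 43282719) was at 14.6 FPKM in HuR-FKO and 8.34 FPKM in control, 1.75-fold higher in HuR-FKO. Eif3d was thus 4.47 times Eif3e in HuR-FKO and 0.641 times in control.

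The other eIF3 subunits lay between these. Eif3h, a peripheral subunit, was at 62.2 FPKM in the HuR-FKO-labelled library and 5.94 FPKM in that labelled control, 10.47-fold higher in HuR-FKO. Eif3g, which with Eif3i attaches to Eif3b, was at 23.0 FPKM in HuR-FKO and 2.80 FPKM in control, an 8.21-fold ratio, while Eif3i was at 35.2 and 7.93 FPKM, a 4.43-fold ratio. The ratio of Eif3h rests on an estimated 34.7 fragments in control, and that of Eif3g on fewer. Eif3k and Eif3l, which form the outer pair of the complex, were at 90.6 and 33.0 FPKM in HuR-FKO and at 36.8 and 10.7 FPKM in control. Eif3k was the most abundant eIF3 gene in both libraries and exceeded Eif3l 2.75-fold in HuR-FKO and 3.42-fold in control. Eif3f was at 52.0 FPKM in HuR-FKO and 12.5 FPKM in control, and Eif3m at 63.7 and 15.2 FPKM, with ratios of 4.16- and 4.19-fold. Over the structural octamer of subunits a, c, e, f, h, k, l and m, 7 of 8 genes were below the median ratio (median -0.52), while 4 of the 6 others were above it (median 0.43). This grouping was made after the values were seen, and the side of the octamer depended on the filter. Its lowest control value was 5.94 FPKM, so requiring 5 FPKM in both libraries dropped none of its 8 genes. The octamer median log2 ratio of 1.70 then lay above the 1.52 of all genes kept. The loosely attached j subunit is encoded by Eif3j1, at 63.5 FPKM in HuR-FKO and 8.27 FPKM in control, and by Eif3j2, at 13.3 and 2.59 FPKM. These transcripts were 99.4% identical over 2379 bases, so how reads were shared between them cannot be told from the table.

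**Figure D3:**
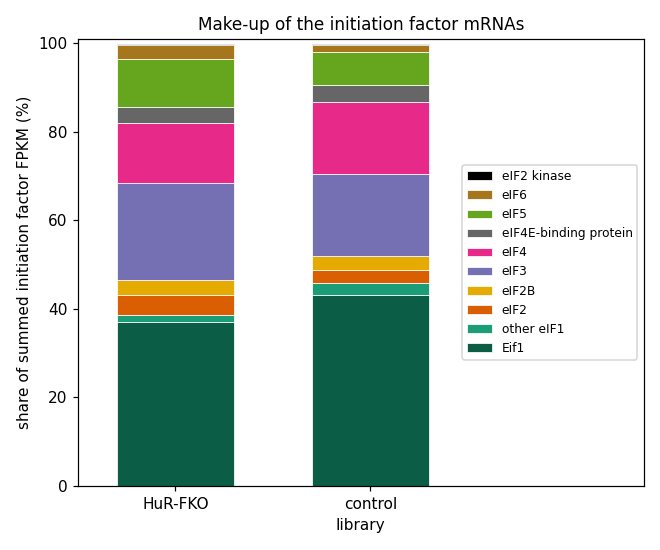
Share of the summed FPKM of the 55 protein-coding members held by each factor, in percent, for the library labelled HuR-FKO and the library labelled control. Eif1 and its relatives hold 38.6% in HuR-FKO and 45.8% in control, and eIF3 holds 21.9% and 18.6%.

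The helicases of eIF4A, which unwind the leader of an mRNA, stood at both ends of the range. Eif4a1, the main cytoplasmic form, was at 100.5 FPKM in the HuR-FKO-labelled library and 47.5 FPKM in that labelled control, 2.11-fold higher in HuR-FKO. Eif4a2, its close relative, was at 32.1 FPKM in HuR-FKO and 18.4 FPKM in control, 1.75-fold higher. Eif4a3 (chromosome 11, 119288363 to 119300089), a helicase of the exon junction complex despite its name, was at 72.5 FPKM in HuR-FKO and 6.18 FPKM in control, 11.7-fold higher. The initiation helicases kept close proportions, with Eif4a1 at 3.13 times Eif4a2 in HuR-FKO and 2.58 times in control. Against Eif4a3, by contrast, Eif4a1 was at 1.39 times in HuR-FKO and 7.70 times in control. The pseudogene row Eif4a-ps4, for which GENCODE gave no match, was at 38.3 FPKM in HuR-FKO and 15.8 FPKM in control. The cofactors of the helicase differed, with Eif4h at 46.5 FPKM in HuR-FKO and 7.93 FPKM in control, and Eif4b at 9.43 and 2.92 FPKM.

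The scaffolds of eIF4G, which join the cap-binding protein to the ribosome, all lay below the median ratio. Eif4g2, the form DAP5 that lacks the binding site for eIF4E, was at 36.5 FPKM in the HuR-FKO-labelled library and 17.7 FPKM in that labelled control, 2.07-fold higher in HuR-FKO. Eif4g1 was at 14.0 FPKM in HuR-FKO and 5.91 FPKM in control, and Eif4g3 at 6.98 and 1.74 FPKM. Eif4g2 exceeded Eif4g1 2.60-fold in HuR-FKO and 2.99-fold in control. The median of the 3 genes was -0.97, beside -1.14 for the 3 eIF4A genes.

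The mRNA of the cap-binding protein itself was low in both precipitates. Eif4e, the canonical form, was at 2.14 FPKM in the HuR-FKO-labelled library and 1.84 FPKM in that labelled control and did not pass the filter. The multiples of Eif4e given below rest on its estimated 49.9 fragments in HuR-FKO and 25.7 in control. Eif4e3, a family member with an unusual mode of cap binding, was at 31.2 FPKM in HuR-FKO and 10.2 FPKM in control, 14.6 times Eif4e in HuR-FKO and 5.54 times in control. Eif4e2, a cap-binding competitor that represses translation, was at 9.12 FPKM in HuR-FKO and 1.26 FPKM in control, a 7.24-fold ratio on an estimated 24.8 control fragments. Eif4ebp1, the binding protein that holds eIF4E back until mTORC1 phosphorylates it, was at 87.8 FPKM in HuR-FKO and 26.1 FPKM in control. It exceeded Eif4e 41.0-fold in HuR-FKO and 14.2-fold in control, while Eif4ebp2 was at 2.05 and 0.514 FPKM and Eif4ebp3 at 1.09 and 0.835 FPKM. Eif4enif1, the transporter that carries eIF4E to the nucleus and to P-bodies, was at 9.12 FPKM in HuR-FKO and 0.902 FPKM in control, 10.1-fold higher in HuR-FKO on an estimated 16.3 control fragments, the fewest of the 41. Both Eif4enif1 and Eif4e2 passed the filter through HuR-FKO alone.

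Of the late-acting factors, Eif5b (chromosome 1, 37998010 to 38055579), the GTPase that joins the large subunit, had the highest ratio. It was at 33.6 FPKM in the HuR-FKO-labelled library and 2.99 FPKM in that labelled control, 11.3-fold higher in HuR-FKO. Eif5b passed the filter through HuR-FKO alone, which favours a ratio toward HuR-FKO. Eif5, which makes eIF2 hydrolyse its GTP, was at 33.1 FPKM in HuR-FKO and 7.11 FPKM in control, a ratio of 4.66-fold, the same to that rounding as the median of all tested genes. Eif5a, the hypusine-bearing factor that also serves elongation, was the second most abundant member in HuR-FKO at 223.9 FPKM, against 44.9 FPKM in control. Eif5a was 6.77 times Eif5 in HuR-FKO and 6.32 times in control. Eif6, which keeps large subunits apart from small ones, was at 85.6 FPKM in HuR-FKO and 13.1 FPKM in control, a 6.52-fold ratio.

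The 14 protein-coding members under the filter were Eif1ad, Eif2d, Eif2s1, Eif2b1, Eif2b2, the 4 kinases, Eif4e, Eif4e1b, Eif4ebp2, Eif4ebp3 and Eif5a2. Of these, Eif2d, a factor of unusual initiation and recycling, was at 2.07 FPKM in the HuR-FKO-labelled library and, like Eif2s1, Eif2ak4 and Eif5a2, was listed at 0 in that labelled control. The remaining 5 rows of the 60 were the pseudogenes Eif3s6-ps1, Eif3s6-ps2 and Eif5al3-ps, the unmatched Eif4a-ps4 and the non-coding row Eif2c5. Of these only Eif4a-ps4 reached 5 FPKM.

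As a whole, the 55 protein-coding members summed to 2690 FPKM in the HuR-FKO-labelled library and 745.9 FPKM in that labelled control, which was 0.626% and 0.604% of all protein-coding FPKM. The sum was 3.61-fold higher in HuR-FKO, and that of all protein-coding genes was 3.48-fold higher. Within the sum, Eif1 alone took 37.1% in HuR-FKO and 43.1% in control. The eIF4 genes took 13.4% in HuR-FKO and 16.3% in control, eIF5 took 10.8% and 7.38%, and eIF6 took 3.18% and 1.76%.

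Some ratios share a locus with another expressed gene. Of the 41 members, 7 overlapped another row at 5 FPKM or more, and the table does not show whether reads of such a pair were separated. The study's methods call its RNA-seq libraries strand-specific, but no source used here states whether that holds for the immunoprecipitates or whether strand was used in counting. Opposite to Eif4a2 lies Rfc4, at 19.3 FPKM in the HuR-FKO-labelled library and listed at 0 in that labelled control, and within Eif4a2 lie the snoRNA rows Gm26447, Gm24616 and Snora81, at 476.3, 698.2 and 112.0 FPKM in HuR-FKO and 0, 57.3 and 0 FPKM in control. Opposite to Eif3m lies Ccdc73, at 153.9 FPKM in HuR-FKO and 2.31 FPKM in control. Opposite to Eif4enif1 lies Drg1 (17.9 FPKM in HuR-FKO, 7.30 FPKM in control), opposite to Eif2a lies Serp1 (17.98 and 4.48 FPKM), and opposite to Eif2b4 lies Snx17 (21.6 and 5.94 FPKM). The miRNA row Gm22415 within Eif3j2 was at 82.7 FPKM in HuR-FKO and 0 in control, and the snoRNA row Gm22988 within Eif4a1 was at 0 in HuR-FKO and 50.3 FPKM in control. Values of such short rows are large for few fragments.

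The pentamer ATTTA was then counted on the transcript strand of the longest annotated 3′ UTR of each gene. It was present in 26 of 41 members (63.4%) and in 64.8% of the 5498 tested genes with a UTR, and its density was 1.81 and 1.79 per kb. The members below the median ratio held it in 15 of 23 cases, at 2.17 per kb, and those above in 11 of 18 cases, at 1.36 per kb. Over all tested genes the densities were 1.88 per kb below and 1.70 per kb above the median ratio. The U-rich TTTTTTT went the other way among the members, at 2.27 per kb below and 2.73 per kb above. Over all tested genes it was at 2.52 per kb below and 2.01 per kb above. TTTATTT was at 0.475 per kb below and 0.426 per kb above among the members, and at 0.557 and 0.497 per kb over all tested genes. Eif4g2 carried the most among the tested members, with 10 pentamers in 4942 bases, followed by Eif4a2 with 8, and by Eif1ax, Eif5 and Eif4g3 with 7 each. Of these, Eif4g2, Eif4a2 and Eif1ax were among the 6 members at least 2-fold toward control, whereas Eif5 was at the median ratio and Eif4g3 near it at -0.22. These counts are not divided by length, and Eif1ax held its 7 in 4515 bases. Of the eIF3 genes, 10 of 14 had no pentamer and 8 of 14 had a 3′ UTR under 300 bases. Among all tested genes with a 3′ UTR that short, 20.8% held the pentamer. The number of pentamers went with the log2 ratio at Pearson r = -0.24 (Spearman rho = -0.18) across the 41 members, and at r = -0.021 (rho = -0.035) across all 5498 genes, as a description over genes of the same 2 libraries. A pentamer is a match of letters and not a shown binding site.

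**Figure D4:**
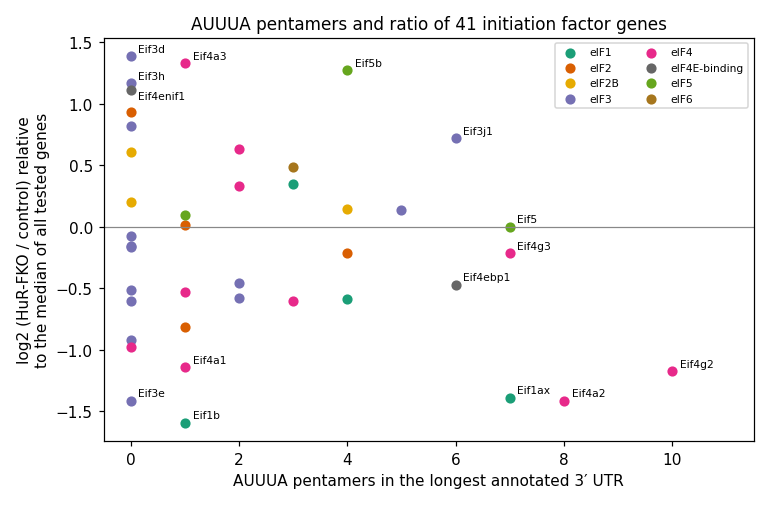
Number of ATTTA pentamers in the longest annotated 3′ UTR of each of the 41 members (horizontal axis) against the log2 ratio of HuR-FKO over control relative to the median of all tested genes (vertical axis), coloured by factor. The members with no pentamer span the range from Eif3e at -1.41 to Eif3d at 1.39.

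The other genes of translation were described from a list of 40 that covers elongation, termination, cap and poly(A) partners, scanning helicases and signalling. Of these, 29 passed the filter, 26 were at least 2-fold higher in the HuR-FKO-labelled library (89.7%, background 82.4%) and 1 was at least 2-fold higher in that labelled control (3.45%, background 3.21%). Their median relative to all tested genes was -0.15, the same to that rounding as for the initiation factors. The exception was Eef1b2, an exchange factor of elongation, at 67.4 FPKM in HuR-FKO and 168.2 FPKM in control. Ncbp2, a subunit of the nuclear cap-binding complex, was at 8.69 FPKM in HuR-FKO and 12.9 FPKM in control, and the termination factor Etf1 at 9.68 and 7.68 FPKM. Denr, a recycling factor, was at 22.8 FPKM in HuR-FKO and 9.82 FPKM in control. The regulators of the phosphatase that reverses eIF2 phosphorylation parted, with the stress-induced Ppp1r15a at 67.1 FPKM in HuR-FKO and 0.970 FPKM in control and the constitutive Ppp1r15b at 9.46 and 4.19 FPKM. On the HuR-FKO side also lay the termination factor Gspt1, at 18.1 FPKM in HuR-FKO and 0.765 FPKM in control, and Gigyf2, a partner of Eif4e2 in repression, at 29.0 and 3.47 FPKM. Mcts2 and Rps6kb2, at 12.4 and 5.24 FPKM in HuR-FKO, were listed at 0 in control.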

How the data were processed

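RNA was immunoprecipitated with an anti-HuR antibody from epididymal white fat and sequenced, 1 library for each genotype. FPKM per gene were deposited by the authors in 1 table. The tools named in the submitters' processing notes are TopHat2 2.0.11, Cufflinks 2.1.1 and mm10. The annotation, duplicate handling, strand setting and library totals are not given in the sources used here. FPKM is a share of its own library, so abundant RNAs lower the values of all other genes.

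Rows were joined by identifier to GENCODE release M21 (36489 of 38396 matched, and 59 of the 60 members). Values under 0.1 FPKM were set to 0.1, and ratios were taken over protein-coding genes that reached 5 FPKM in at least 1 library, with Python 3.11.15 and pandas 2.3.3. A gene was called at 2-fold. Since a listed 0 may be a failed estimate, no fold is given against it. Identity between copies came from BLAST 2.17.0. Named were all members at 5 FPKM, the 5 highest below it, overlapping rows at 5 FPKM, and of the other translation genes the 5 farthest from the median ratio on each side. Further members below 5 FPKM, and the pairs compared within a library, were picked after their values were seen. The members and lists were chosen with earlier results of these data known.

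Depth was estimated from the steps between low values, at a fragment length of 200 bases. It came to 18360000 fragments for HuR-FKO and 11000000 for control, but only 26.8% and 33.1% of low values were then whole within 0.05, so fragments were not recovered. About 2-fold larger totals scored slightly higher, at 29.2% for 36780000 in HuR-FKO and 34.9% for 22020000 in control. Estimated fragments per tested member ran between 226 and 9460 in HuR-FKO and between 16.3 and 1830 in control, with 3 members under 30 in control. The estimates cover counting only and PCR copies are not independent molecules. The ratios and the scan for totals were checked on simulated libraries with known ratios and a known total. Alternatives changed the floor, the filter, the gene set and the scaling.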

Additional observations from a re-analysis of the deposited data

How the results depend on the processing

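No paired analysis was possible because there is 1 library per genotype, and no replicate could be left out. Scaling added a constant to every log2 ratio, -1.67 for median centring, -1.98 for upper-quartile scaling, -1.80 for scaling to summed protein-coding FPKM and 1.36 for TPM, so ratios relative to the median did not move. Members at least 2-fold higher in HuR-FKO then numbered 11, 7 and 10 under median centring, upper-quartile and summed scaling, those at least 2-fold higher in control 1, 4 and 1, and the median log2 ratio was 0.40, 0.091 and 0.27, or 3.43 on TPM. Over all tested genes that median was 0.55, 0.24 and 0.42, or 3.58 on TPM. The share of all tested genes called, or turned toward control, under these scalings was not counted. In the same order of these scalings, the log2 ratio turned toward control for Eif1b (-1.04, -1.35, -1.17), Eif4a2 (-0.86, -1.17, -0.99), Eif3e (-0.86, -1.17, -0.99), Eif1ax (-0.84, -1.15, -0.97), Eif4g2 (-0.62, -0.93, -0.75), Eif4a1 (-0.59, -0.90, -0.72), Eif4g1 (-0.42, -0.73, -0.55), Eif3k (-0.37, -0.68, -0.50), Eif2a (-0.26, -0.57, -0.39), Eif3l (-0.05, -0.36, -0.18), Eif4e3 (-0.049, -0.36, -0.18), Eif1 (-0.034, -0.34, -0.17) and Eif3a (-0.021, -0.33, -0.15). Under upper-quartile and summed scaling alone it also turned for Eif3c (-0.21, -0.038), Eif4ebp1 (-0.23, -0.050), Eif3b (-0.27, -0.091) and Eif4b (-0.28, -0.11).

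Filters moved the medians relative to all genes. That of all members, -0.15, was 0.24 with 5 FPKM required in both libraries, 0.14 with no filter, 0.022 at a filter of 20 FPKM and 0.068 with a pseudocount of 1, and that of eIF3, -0.16, was 0.39, 0.14, -0.025 and 0.078 under the same settings. With no filter, 32 of 55 members lay above the median ratio, and the medians were -0.29 for eIF1 and 0.78 for eIF2, where Eif2s1 and Eif2d, listed at 0 in control, stand at the floor. With 5 FPKM required in both libraries, which removes large ratios, they were -0.39 for eIF1, 0.49 for eIF2, 0.85 for eIF2B, 0.75 for eIF5 and 1.19 for eIF6. A filter of 20 FPKM gave 0.49 for eIF2. The eIF4E-binding proteins gave -0.46 at a filter of 1 FPKM and -0.34 at 20 FPKM. An alternative chosen after seeing the data, without members that overlap another row at 5 FPKM, left Eif4ebp1 alone in that group at -0.47. The eIF2 kinases had no value at 5 FPKM, and their median under lower filters is not given, since its middle genes have at most 2.46 estimated control fragments. A pseudocount of 0.1 or 1, or all annotated rows, moved no count by over 1.5 times and no median ratio by over 1.5-fold. Depth limits the members with few control fragments, Eif4enif1, Eif3g and Eif4e2 first.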
